A study of Mus musculus with 13 samples.

Results

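Collagens are the main structural proteins of the extracellular matrix. Their chains carry long runs of a glycine repeat, wind around each other into a helix inside the cell, and are cut and cross-linked outside it into fibrils, sheets or filaments. Fibroblasts make most of the fibrillar collagen of connective tissue, and glucocorticoids are known to lower collagen synthesis in these cells. The glucocorticoid receptor (GR) is a transcription factor that enters the nucleus when it binds hormone and contacts DNA through its zinc fingers. The 44 mouse collagen genes of a RefSeq gene table (symbols of the form Col, digits, a, digits) were looked up in 7 lists of GR binding peaks, each peak taken with the gene that the authors' annotation gave it. Of the 44, 30 were named in the lists, among 8725 genes of any kind, and 14 were not.

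The peaks come from chromatin immunoprecipitation and sequencing of GR in embryonic fibroblasts of male C57BL/6 mice (embryonic day 13.5, heart, liver and head removed, 7 days of culture). The 13 libraries fall into 5 groups. With 1 µM dexamethasone (Dex, a synthetic glucocorticoid) for 16 h plus lipopolysaccharide (LPS, a bacterial inflammatory stimulus; 100 ng/µl for 3 h as labelled), 3 were wild type (GR wt/wt), 4 carried the zinc finger mutation GR Zn/Zn (written C437G in the labels) and 2 were GR knockout (GRKO/KO). With Dex alone for 16 h, 2 were wild type and 2 were GR Zn/Zn. Every group therefore received Dex, and no untreated cells were analysed here. The Dex+LPS libraries were given as 3 merged lists, of peaks found in the wild type only (wild-type-specific), in both genotypes (shared) or in the mutant only (mutant-specific), from which knockout peaks had been removed. The sources used here do not give how a peak was decided to be shared or specific, and the classes are used as deposited. These lists have no replicate spread, and nothing in them is a level: a peak has a position and no height. They held 18953, 3533 and 2187 peaks, and the 4 Dex libraries, 1 list each, held 53 to 854. Read depth is unknown, and 4 mutant libraries were merged against 3 of wild type. Peaks do not measure expression, so the fibroblast label could not be checked against marker genes.

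The start regions of 3 fibrillar collagen genes are shown first, because peaks lay at or beside them. Each is the 300-base RefSeq window (GRCm38.p6) from 250 bases before to 50 after the gene start, 5′ to 3′ along the gene, with the bases under a wild-type-specific peak in capitals. Windows were matched for 35 of the 44 genes, and not for Col1a1, Col2a1, Col4a3, Col5a2, Col9a3, Col12a1, Col14a1, Col22a1 and Col26a1. Of these 38 windows, those of Col3a1 (chr1:45311288-45311587, plus strand) and Col5a1 (chr2:27886175-27886474, plus strand) overlapped a peak, by 23 and 77 bases. Overlap was not counted over the windows of other genes, so this has no background. The window of Col1a2 (chr6:4505368-4505667, plus strand) is shown because 214 bases past its end came a peak shared by both genotypes.
Col3a1: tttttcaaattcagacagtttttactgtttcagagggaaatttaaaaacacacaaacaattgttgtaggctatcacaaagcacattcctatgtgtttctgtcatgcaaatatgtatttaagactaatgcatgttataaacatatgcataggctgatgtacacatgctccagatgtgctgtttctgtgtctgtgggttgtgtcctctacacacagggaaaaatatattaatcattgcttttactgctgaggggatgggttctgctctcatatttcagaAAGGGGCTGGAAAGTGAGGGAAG
Col5a1: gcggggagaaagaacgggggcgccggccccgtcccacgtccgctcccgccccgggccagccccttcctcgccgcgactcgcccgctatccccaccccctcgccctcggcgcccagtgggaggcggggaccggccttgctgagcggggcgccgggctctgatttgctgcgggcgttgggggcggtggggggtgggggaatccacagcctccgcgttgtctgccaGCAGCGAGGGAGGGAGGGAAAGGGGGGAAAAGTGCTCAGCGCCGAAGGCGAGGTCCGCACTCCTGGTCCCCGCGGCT
Col1a2: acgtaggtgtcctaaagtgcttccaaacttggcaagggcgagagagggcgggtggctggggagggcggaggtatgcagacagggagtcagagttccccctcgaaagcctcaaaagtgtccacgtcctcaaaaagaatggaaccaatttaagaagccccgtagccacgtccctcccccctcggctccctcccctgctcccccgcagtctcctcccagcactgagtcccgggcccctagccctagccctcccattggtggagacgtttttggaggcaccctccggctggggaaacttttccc

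These windows held no match to the GR palindrome, searched on both strands as GNACA, any 3 bases, and TGTNC. No collagen window did, against 0.475% of all 32851 windows, a rate at which few matches would fall in 38 windows. The short GR element AGAACA, which can overlap the palindrome, was found at 2 of the 35 collagen genes (Col9a1 and Col20a1) and 21.3% of all 27025 genes with a window. The AP-1 motif TGANTCA was found at Col6a1 alone, against 8.97% of all genes. Neither Col9a1 nor Col20a1 had a peak of its own. The collagen windows had a median GC content of 59.8% (all windows, 52.7%), which bears on how often such letters occur and whose part was not tested. A window without these letters says nothing of the receptor, and most peaks lay outside the windows.

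Under Dex+LPS, most peaks at collagen genes were found in wild-type cells only, as were most peaks of the whole lists (18953 of 24673). The 30 named genes had 173 peaks, of which 131 were wild-type-specific, 28 shared and 14 mutant-specific. Every one of the 30 was in the wild-type-specific list, 14 were in the shared list and 10 in the mutant-specific list, and no collagen gene had mutant peaks alone. That is 68.2% of the 44 collagen genes with a wild-type-specific peak (95% exact Clopper-Pearson interval 52.4 to 81.4%), 31.8% with a shared peak (18.6 to 47.6%) and 22.7% with a mutant-specific peak (11.5 to 37.8%). Over all 21900 protein-coding genes the shares were 30.6%, 9.37% and 5.36%, and 34.4% had a peak of any class. Of the 7524 protein-coding genes with a peak, 6695 were in the wild-type-specific list. How many of the 7524 had mutant peaks alone was not counted. Intervals here and below cover counting error only.

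**Figure D1:**
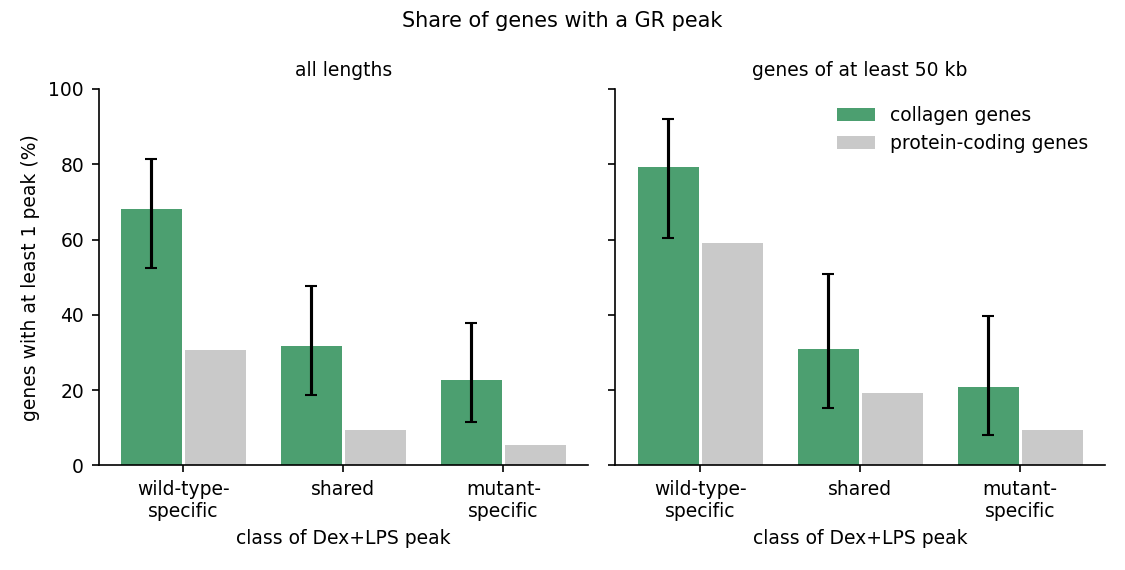
Share of genes with at least 1 Dex+LPS peak of each class (y axis, percent), for collagen genes (green, bars with 95% Clopper-Pearson intervals) and protein-coding genes (grey). In the left panel, genes of all lengths, the collagen share is 68.2, 31.8 and 22.7%; in the right panel, genes of at least 50 kb, the grey bars rise to 59.2, 19.3 and 9.50% and lie closer to the collagen bars.

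Collagen genes are long, with a median of 114.4 kb against 17.1 kb for protein-coding genes, so the shares were also taken within a range of length. Among the 29 collagen genes of at least 50 kb, 23 had a peak (79.3%, interval 60.3 to 92.0%), against 62.3% of 4945 protein-coding genes of that length. In the wild-type-specific list were 79.3% of them, against 59.2% of those protein-coding genes. For the shared list the values were 31.0% (15.3 to 50.8%) and 19.3%, and for the mutant-specific list 20.7% (7.99 to 39.7%) and 9.50%. The any-class, shared and mutant-specific shares of these long genes thus had the background inside their intervals. The wild-type-specific background of 59.2% lay just below the interval of that class (60.3 to 92.0%). Of the 15 shorter collagen genes 7 had a peak (46.7%, 21.3 to 73.4%), against 26.2% of 16955 short protein-coding genes; they were Col1a1, Col1a2, Col3a1, Col5a3, Col6a1, Col6a2 and Col7a1. Across the 44 genes the number of peaks followed length only weakly (Spearman's rho 0.14, a description over genes that differ in neighbours and base composition).

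The share of wild-type peaks that were also found in the mutant was 17.6% at collagen genes (28 of 159, interval 12 to 24.4%), and 15.7% over all 22486 wild-type peaks, which lies inside that interval. Of the 42 mutant peaks at collagen genes, 66.7% (50.5 to 80.4%) were also wild-type peaks, against 61.8% of all 5720 mutant peaks. Wild-type peaks outnumbered mutant peaks 3.79-fold at collagen genes and 3.93-fold over all genes. Both all-gene percentages lay inside the collagen intervals.

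**Figure D2:**
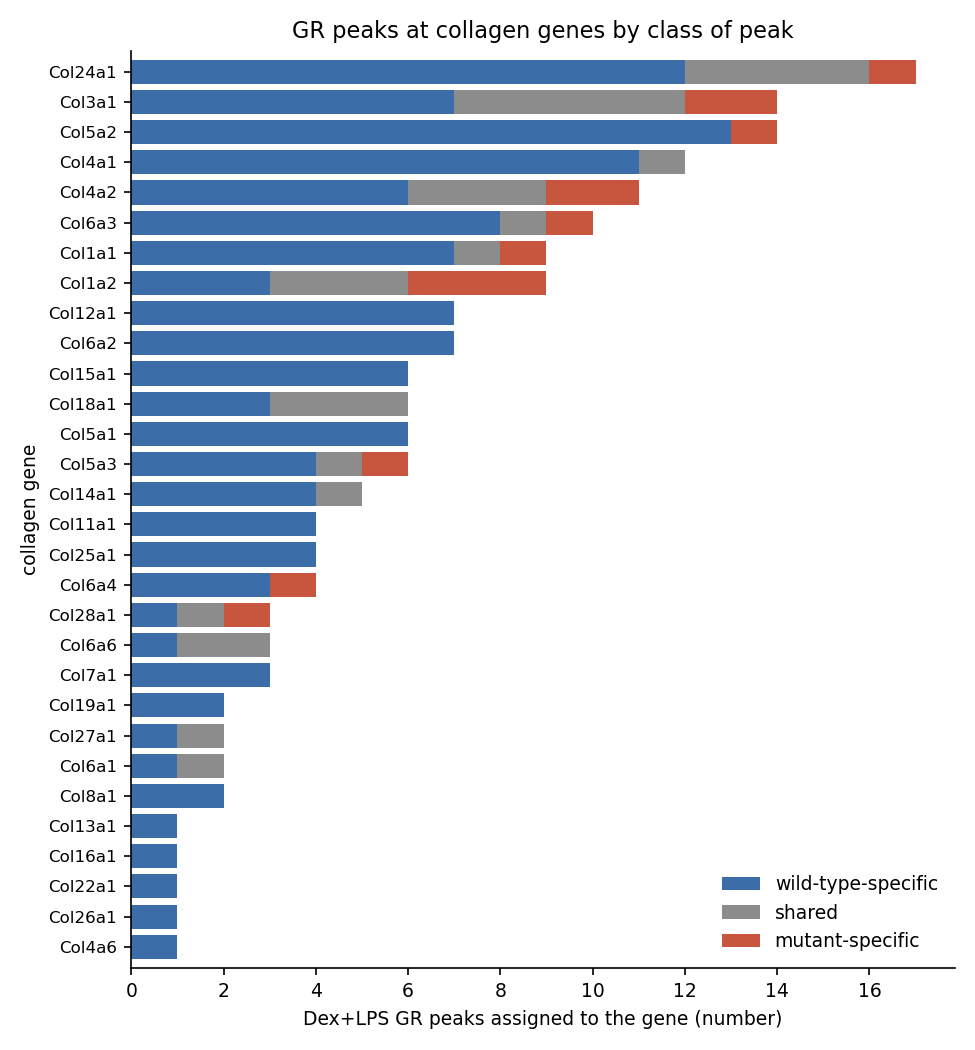
Number of Dex+LPS GR peaks (x axis) assigned to each of the 30 collagen genes with a peak (y axis), stacked by class of peak: wild-type-specific (blue), shared (grey) and mutant-specific (red). Col24a1 has the most (17), and 14 genes carry wild-type-specific peaks alone.

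The number of peaks per bound gene ran from 1 (5 genes) to 17, with a median of 4.5. Protein-coding genes of any length with a peak had a median of 2. The bound collagen genes were long (median 124.3 kb), and no median for genes of like length was taken. The 4 genes with most peaks, Col24a1, Col3a1, Col5a2 and Col4a1, held 57 of the 173. In 8 genes peaks of all 3 classes were found (Col1a1, Col1a2, Col3a1, Col4a2, Col5a3, Col6a3, Col24a1 and Col28a1), 14 had wild-type-specific peaks alone, and the others had a shared or a mutant-specific peak beside wild-type-specific ones. These combinations were not counted over other genes with a peak.

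Gene positions below are mm10 coordinates of the authors' annotation. Fibrillar collagens, which form the striated fibrils of skin, bone and tendon, held 81 of the peaks. Of these 11 genes 9 were bound, 6 of them with a shared peak and 6 with a mutant-specific one, and 20.8% of their 72 wild-type peaks were shared. Type I collagen is built from the products of Col1a1 and Col1a2. Col1a1 (chr11:94936224-94953042, plus strand) had 7 wild-type-specific peaks, 1 shared and 1 mutant-specific. A wild-type-specific peak overlapped its start (chr11:94936157-94936356) and others were centred 734 and 1668 bp inside the gene and 7296, 8034, 18266 and 19486 bp upstream. The shared peak was centred 2464 bp upstream, and the mutant-specific peak (chr11:94954486-94954685) lay past the gene's end, centred 18362 bp from the start. All but that last peak and the most distant upstream pair lay in 9.90 kb around the start.

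Col1a2 (chr6:4505618-4541543, plus strand) had 3 peaks of each class, so that mutant cells had as many peaks there as wild-type cells, 6 each. The peak nearest its start was shared (chr6:4505882-4506081, centre 364 bp inside). Other shared peaks were centred 15.6 and 48.0 kb upstream. The mutant-specific peaks lay 5006 and 9516 bp inside the gene and past its end (chr6:4543458-4543657), the last 898 bp from a wild-type-specific peak. Col28a1, with 2 and 2, was the other collagen gene with equal numbers in both genotypes.

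Col3a1, the gene of type III collagen of skin and vessel walls (chr1:45311538-45349706, plus strand), had 14 peaks, of which 7 were wild-type-specific, 5 shared and 2 mutant-specific. A wild-type-specific peak was centred 126 bp inside the gene (chr1:45311565-45311764), the peak that reaches into the Col3a1 window above. It belongs to a run of 8 peaks within 12.7 kb of the 5′ part of the gene, with 4 wild-type-specific, 3 shared and 1 mutant-specific. In that run the mutant-specific peak (chr1:45316549-45316748) stood 87 bp from a wild-type-specific one. The other mutant-specific peak (chr1:45360878-45361077) lay past the gene's end, 554 bp from a wild-type-specific peak. Together Col1a1, Col1a2 and Col3a1 had 26 wild-type peaks, of which 9 were shared (34.6%, interval 17.2 to 55.7%), against 19 of 133 (14.3%, 8.83 to 21.4%) at the other collagen genes. By gene the shared peaks were 1 of 8 wild-type peaks at Col1a1, 3 of 6 at Col1a2 and 5 of 12 at Col3a1. Over all wild-type peaks of the lists 15.7% were shared. The split of these genes from the other collagens was made with the values known and has no test, and peaks of 1 gene are not independent.

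Col5a2, which encodes a type V chain that sets fibril diameter, follows Col3a1 on chromosome 1 in the opposite orientation (chr1:45374331-45503282, minus strand). Of its 14 peaks 13 were wild-type-specific, the most of that class at any collagen gene, 1 was mutant-specific and none was shared. A wild-type-specific peak was centred 348 bp inside the gene, and 7 others lay upstream, between 38.1 and 124 kb from the start. The mutant-specific peak (chr1:45362542-45362741) lay past the gene's 3′ end, 136 bp from a wild-type-specific peak. The 24.6 kb between Col3a1 and Col5a2 held 6 peaks, 3 wild-type-specific, 1 shared and 2 mutant-specific, and the annotation gave 4 of them to Col3a1 and 2 to Col5a2. Which of the neighbours such a peak belongs to cannot be read from its position.

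Col5a1, the other main type V chain (chr2:27886425-28039510, plus strand), had 6 peaks, each of them wild-type-specific. The peak at its start (chr2:27886398-27886597) was the only one at the gene itself, and the other 5 stood in a run of 26.1 kb, from 24.4 to 50.3 kb upstream. Col5a3 (chr9:20770057-20815067, minus strand) had 4, 1 and 1 peaks in the order wild-type-specific, shared and mutant-specific. Its mutant-specific peak (chr9:20763283-20763482), past the gene's end, lay 145 bp from a wild-type-specific peak, and its shared peak was centred 2219 bp inside.

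Col24a1, a minor fibrillar collagen gene (chr3:145292472-145552011, plus strand), had the most peaks: 12 wild-type-specific, 4 shared and 1 mutant-specific (chr3:145348716-145348915). Of the 17 peaks 14 lay inside the gene, and the nearest to its start was centred 14.9 kb away. Col11a1, which encodes a chain of cartilage fibrils, had 4 wild-type-specific peaks, all outside the gene, 1 of them 452 kb from its start. Col27a1 had 1 wild-type-specific and 1 shared peak inside it. Col2a1 and Col11a2, best known from cartilage, had none.

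**Figure D3:**
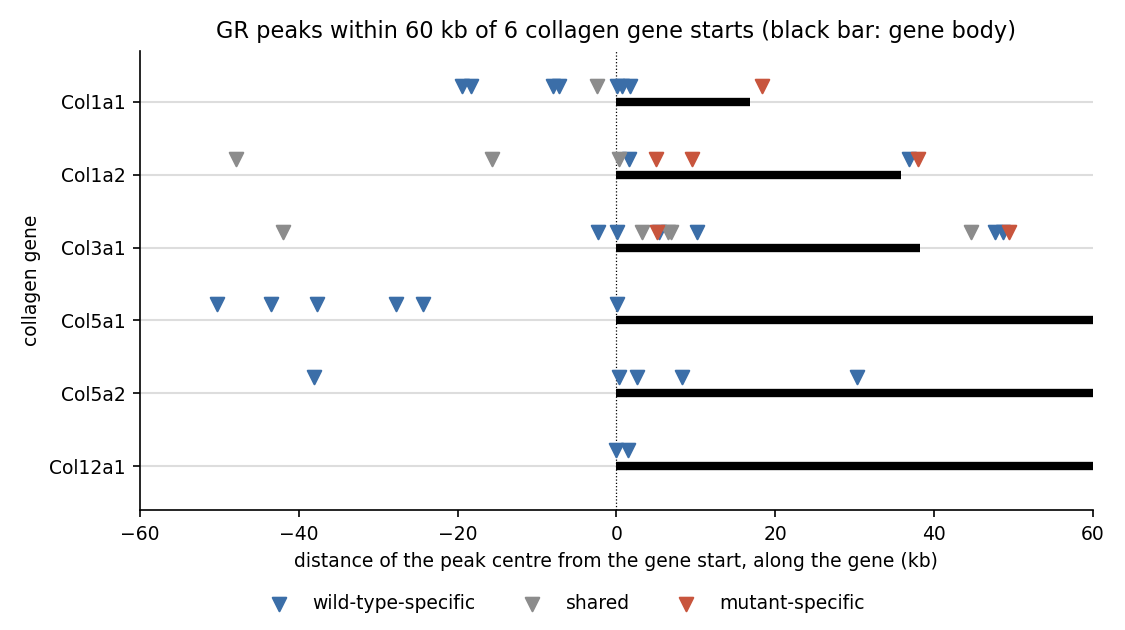
Positions of GR peaks within 60 kb of the start of 6 collagen genes, along the direction of transcription (x axis, kb from the gene start; black bar, gene body; triangles, peak centres coloured by class). Wild-type-specific peaks (blue) sit at the starts of Col1a1, Col3a1, Col5a1, Col5a2 and Col12a1, and a shared peak (grey) at that of Col1a2; mutant-specific peaks (red) lie inside or past the end of Col1a1, Col1a2 and Col3a1.

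The network-forming collagens include those that make the sheets of basement membranes, and 4 of the 9 genes of the group were bound, with 26 peaks. Col4a1 and Col4a2, which encode the chains of the common type IV network, lie head to head with starts that overlap (chr8:11198423-11312826, minus strand, and chr8:11312805-11449287, plus strand). No peak lay in the RefSeq start window of either gene, and the nearest was 9906 bases from that of Col4a1. Within the genes peaks stood in runs. Col4a1 had 11 wild-type-specific and 1 shared peak, 9 of the 12 in a run of 24.0 kb (chr8:11249897-11273867). Col4a2 had 11 peaks, 6 of them wild-type-specific, 3 shared and 2 mutant-specific, with 3 shared and 2 wild-type-specific peaks in 10.7 kb (chr8:11382474-11393127). The mutant-specific peaks (chr8:11327339-11327538 and chr8:11417781-11417980) were 4156 and 5704 bp from the nearest wild-type peak. Col8a1 had 2 wild-type-specific peaks and Col4a6 had 1. Col4a3, Col4a4, Col4a5, Col8a2 and Col10a1 had none.

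Type VI collagen forms beaded filaments near cell surfaces, and 6 of the 7 genes of this group were bound, with 29 peaks, of which 21 were wild-type-specific, 5 shared and 3 mutant-specific. Col6a3 (chr1:90766860-90843971, minus strand) had 8, 1 and 1. Of its wild-type-specific peaks 7 lay past the 3′ end, between 89.5 and 153 kb from the start. The remaining wild-type-specific, the shared and the mutant-specific peak (chr1:90838541-90838740) stood close to each other inside the gene, 7669, 9055 and 5331 bp from the start. Col6a2 had 7 wild-type-specific peaks and no other, all upstream of the gene, and 6 of them in 19.5 kb (chr10:76634067-76653517). This stretch lies between Col6a2 and Col6a1, which had only 1 wild-type-specific and 1 shared peak; of the 8 peaks in the 85.4 kb between them the annotation gave 7 to Col6a2. Col6a4 had 3 wild-type-specific peaks inside the gene and a mutant-specific peak (chr9:106111972-106112171) 15.4 kb upstream. That peak stood 90.8 kb from any wild-type peak, the farthest among the collagen genes. Col6a6 had 3 peaks, 1 wild-type-specific and 2 shared. Col6a5 had none. Col28a1 (chr6:7997808-8192617, minus strand) had 1 peak of each class. Its mutant-specific peak (chr6:8163131-8163330) and its shared peak lay 29.4 and 20.2 kb inside the gene, 8941 bp apart, and its wild-type-specific peak lay past the gene's end.

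**Figure D4:**
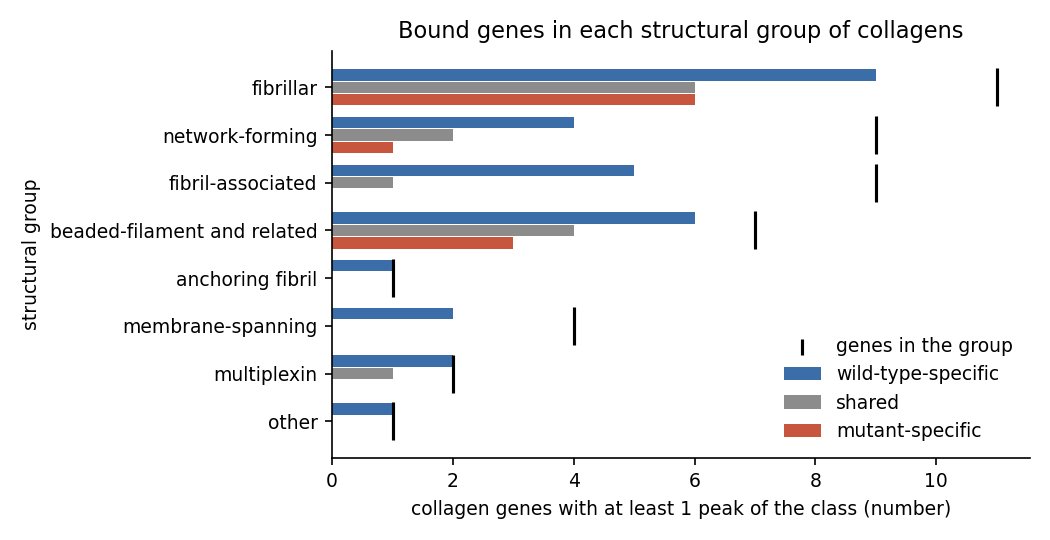
Number of collagen genes (x axis) with at least 1 peak of each class, in each structural group (y axis); the black tick marks the number of genes in the group. Fibrillar genes, the largest group, have the highest number in each class (9, 6 and 6 of 11). The beaded-filament group has 6, 4 and 3 of 7. Mutant-specific peaks are found at fibrillar, network-forming and beaded-filament genes.

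Fibril-associated collagens sit on the surface of fibrils. Of 9 genes 5 were bound, and of their 16 peaks 15 were wild-type-specific and 1 was shared. Col12a1 (chr9:79598987-79718722, minus strand) had 7 peaks, all wild-type-specific, and 1 overlapped its start (chr9:79718643-79718842). The nearest mutant peak of any gene was at least 626507 bp from each of them. Col14a1 had 4 wild-type-specific peaks and the group's shared peak, 74.1 kb inside the gene. Col19a1 had 2 wild-type-specific peaks, and Col16a1 and Col22a1 had 1 each. Col9a1, Col9a2, Col9a3 and Col20a1 had none.

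The remaining groups were small. Col7a1, which makes the anchoring fibrils below the epidermis, had 3 wild-type-specific peaks, 1 of them centred 511 bp upstream of its start (chr9:108953135-108953334). The multiplexins Col15a1 and Col18a1, whose proteins carry side chains of sugars and sit at basement membranes, had 6 wild-type-specific peaks (Col15a1) and 3 wild-type-specific and 3 shared (Col18a1). In Col18a1 2 shared peaks alternated with 2 wild-type-specific peaks in a stretch of 9.29 kb upstream (chr10:77202227-77211514). Among the membrane-spanning collagens Col25a1 had 4 wild-type-specific peaks and Col13a1 had 1, while Col17a1 and Col23a1 had none. Col26a1 had 1 wild-type-specific peak.

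A peak centred within 1 kb of the start was found at 7 collagen genes (15.9%, interval 6.64 to 30.1%), against 9.89% of protein-coding genes, which lies inside that interval. They were Col1a1 (2 peaks), Col1a2, Col3a1, Col5a1, Col5a2, Col7a1 and Col12a1, of which Col5a1, Col7a1 and Col12a1 are given with positions because of these peaks, chosen after their values were seen. At 1 of them, Col1a2, the peak was shared (2.27% of collagen genes, against 2.00% of protein-coding genes), and no mutant-specific peak lay so close. Over all collagen peaks 4.62% were centred within 1 kb of a start, against 10.5% of all peaks, and 56.6% lay inside or across an end of the gene, against 49.6%. Collagen peaks lay at a median of 52.8 kb from the start in the wild-type-specific list, 41.1 kb in the shared and 23.9 kb in the mutant-specific list. The medians of the whole lists were 42.3, 37.2 and 20.8 kb. The order of the classes was thus that of the whole lists. Collagen genes are longer than most (median 114.4 kb against 17.1 kb), and none of these values was taken over genes of like length. Whether the differences in position follow length was not tested.

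The median gap from the 14 mutant-specific collagen peaks to the nearest wild-type peak was 3.68 kb, against 7.54 kb for all 2187. At Col3a1, Col5a2 and Col5a3 the gap was under 500 bp, 3 of 14 (21.4%) against 10.4% of all mutant-specific peaks. The deposited lists thus keep peaks this close in separate classes, which bears on the shared and specific counts. Counting wild-type-specific collagen peaks within 500 bp of a mutant-specific one as shared gave a shared percentage of 19.5% in place of 17.6%. From the 131 wild-type-specific collagen peaks to the nearest mutant peak the median gap was 60.5 kb (all, 107 kb).

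The 14 collagen genes without a peak were Col2a1, Col4a3, Col4a4, Col4a5, Col6a5, Col8a2, Col9a1, Col9a2, Col9a3, Col10a1, Col11a2, Col17a1, Col20a1 and Col23a1. Their median length was 40.0 kb (RefSeq positions), against 124.3 kb for the 30 bound genes (the authors' positions). They were not all far from peaks: 4 had a peak of another gene within 10 kb of the gene body and 12 within 100 kb. The same counts were not taken for other genes without a peak, so these have no background. The nearest, 0.433 kb from Col23a1, was a wild-type-specific peak assigned to Phykpl. Col9a1 was the farthest, 257 kb from a peak.

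Under Dex alone collagen genes had almost no peaks. Wild-type library 1 had 1 collagen peak among 412, wild-type library 2 had none among 854, and the mutant libraries had none among 53 and 60. The groups overlapped, with means of 0.500 ± 0.707 and 0 (SD, n = 2 each) and a difference of 0.500 (exact permutation test, two-sided, p = 1; the smallest p that 2 against 2 libraries allow is 0.33). Taking 3 peaks of a library's total as the limit that a count of 0 allows, the collagen share of peaks could be up to 0.351% in wild-type library 2, 5.66% in mutant library 1 and 5.00% in mutant library 2. Of protein-coding genes 1.09% and 1.86% had a peak in the wild-type libraries and 0.142% and 0.183% in the mutant libraries, so that few collagen genes would be named at these rates in any case. The single peak lay 222 kb inside Col24a1 (chr3:145514365-145514585) and overlapped a wild-type-specific Dex+LPS peak (chr3:145514333-145514532) by 168 bp. In wild-type library 2 the nearest peak to any collagen peak was 172 kb away, at Col1a2. Dex and Dex+LPS lists were made differently, so their numbers are set side by side and not compared.

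Genes outside the family that act on collagen, where they had a peak, were mainly in the wild-type-specific list, as were bound genes in general. That list named 6695 of the 7524 protein-coding genes with a peak of any class. In the sets below, P4ha1 and Lum had 1 shared peak each and no wild-type-specific one. For each set the counts are set beside the 30.6%, 9.37% and 5.36% of protein-coding genes in the 3 lists. The order is that used throughout (wild type only, both, mutant only). Those shares cover genes of all lengths, and were 59.2%, 19.3% and 9.50% among genes of at least 50 kb. The lengths of the genes in the sets were not taken, so part of any excess may follow length, which was not tested. Of 19 genes for folding and modification 8, 2 and 0 were in the 3 lists. P4hb, a subunit of prolyl 4-hydroxylase, the enzyme that stabilises the helix, had 1 wild-type-specific and 1 shared peak. Serpinh1, the collagen chaperone of the endoplasmic reticulum, had 5 wild-type-specific peaks and was named after its values were seen. Of 8 genes that cut procollagen or enhance its cutting 7, 1 and 1 were listed. Tll1, a relative of the C-proteinase Bmp1, had 3, 2 and 1 peaks, while Bmp1 and the N-proteinase Adamts2, also named after their values were seen, had 5 wild-type-specific peaks each. Of 10 collagen receptors 8, 2 and 1 were listed. Ddr2, a receptor kinase for fibrillar collagen, had 6 wild-type-specific peaks and 1 shared, Itgb1, the beta chain of the collagen-binding integrins, had 4 and 1, and Mrc2, which takes up collagen for breakdown, had 1 wild-type-specific and 1 mutant-specific. Of 12 fibril-binding proteoglycans and partners 8, 5 and 2 were listed. Postn, a matricellular protein, had 10 wild-type-specific and 2 shared peaks. Sparc, a collagen-binding glycoprotein, had 6 wild-type-specific and 1 mutant-specific. The small proteoglycan genes Dcn and Prelp had 2, 2 and 1 and 5, 1 and 0 peaks in the 3 classes.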

How the data were processed

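ChIP-seq of GR followed fixation with DSG for 30 min and 1% formaldehyde for 10 min, per the labels' protocols. MACS2 2.1.0, BWA 0.7.13, Picard 1.119 and the mm10 build are listed, without role, in the submitters' processing notes. The deposited values are positions and distances in base pairs, with no count, score or p per peak; per the labels the Dex+LPS lists were merged, with knockout peaks removed. Dex peaks were 202 to 3852 bp wide and Dex+LPS peaks 200 bp. Depth is unknown.

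Gene assignment and distance (peak centre to gene start) are the authors'. Positions and lengths of the 30 bound collagen genes are theirs too; those of all other genes, and the start windows, came from RefSeq GRCm38.p6, the assembly of mm10. Gene starts often differ between these sources, most at Col22a1 and Col25a1. Overlap meant at least 1 bp, tested on simulated data. Intervals are exact Clopper-Pearson at 95%; the limit for a count of 0 is 3 counts of the total. The 2 wild-type and 2 mutant Dex lists were set against each other in an exact permutation test; nothing says that these libraries came from separate cultures, so the spread may be technical. Members and lists were chosen with earlier results of these data known. Genes described with positions were the 8 with most peaks, those with a mutant-specific or Dex peak, and Col1a1, Col1a2 and Col3a1; from the other lists, at most 4 genes a list with peaks in 2 or more classes. Others were chosen after their values were seen. Alternatives covered gene assignment, distance, chromosomes 10 to 14, joining of close peaks, overlap, single libraries and pairing. A stricter peak threshold was not run, as no list gives a score. Python 3.11.15 with scipy 1.17.1, pandas 2.3.3, numpy 2.4.6 and, for plots, matplotlib 3.10.9, was used.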

Additional observations from a re-analysis of the deposited data

How the results depend on the processing

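A count was taken as unmoved within 1.5 times its value, the shared percentage within its 95% interval, and the tested Dex difference while it kept its direction and its side of the threshold. By these limits 29 values were unmoved and 8 moved. For the Dex difference the side of the threshold could not change, since so few libraries give no p below 0.33. Leaving out a mutant library, which had no collagen peak, could not change that difference either. The unmoved Dex values therefore do not show that it is stable. Limiting peaks to 10 kb from the start left 13 genes with a wild-type-specific, 5 with a shared and 3 with a mutant-specific peak, in place of 30, 14 and 10. Taking only peaks that overlap the gene body of the gene table left 6 genes with a mutant-specific peak, and cut the peaks from 131 to 72 (wild-type-specific), from 28 to 17 (shared) and from 14 to 8 (mutant-specific); both limits remove distant peaks by construction. Protein-coding genes with a peak were not counted under either limit, so these counts have no background. The shared percentage of wild-type peaks ranged from 15.6% (without Col3a1) to 20.1% (peaks inside the gene or within 100 kb), against 17.6%. The Dex difference of 0.5 peaks ranged from 0 to 1 with a library left out: wild-type library 1 held the only peak, and without it the difference was 0; without wild-type library 2 it was 1 (exact permutation p = 0.333). With the replicate number as a block (paired sign flips) it was 0.5 as before (exact p = 1); the numbers are only labels, and 2 pairs cannot show whether they pair the samples. Merged lists and unknown depth limit all Dex+LPS counts.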
